A study of Homo sapiens with 4 samples.

Results

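The H19, IGF2 and KCNQ1 imprinted domains lie side by side at the tip of the short arm of human chromosome 11, in band 11p15.5. Their 8 genes H19, IGF2, INS-IGF2, KCNQ1, KCNQ1OT1, CDKN1C, PHLDA2 and SLC22A18 were taken by symbol from the 60048 genes of the table, and each was found once. Nascent RNA was measured in HCT116, a colorectal carcinoma cell line, in which RAD21, a subunit of the cohesin ring, carries the degron tag that the genotype RAD21-mAC names. Control cells were given DMSO, and the other cells the auxin IAA at 0.5 mM for 3 h so that RAD21 would be depleted, with 2 libraries in each group. RNA made during 20 min of exposure to 0.5 mM of the uridine analogue 5-ethynyl uridine was mixed with labelled fly RNA, captured and sequenced (EU-seq). All 4 libraries therefore share the tagged RAD21 genotype, and the labels do not say whether the line is a single clone or whether replicates came from separate cultures, so p-values measure only the spread between these libraries, which may be technical. Values are the deposited scaled signal brought to a common scale between libraries, and changes in the total amount of nascent RNA are removed by that step. In such bulk libraries, fewer cells making a transcript and less of it per cell cannot be told apart.

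In an imprinted domain, one parental copy of a gene is read and the other is kept silent. At the H19 and IGF2 domain, CTCF binds an unmethylated control region on the maternal chromosome and, with cohesin, insulates IGF2 from enhancers that lie beyond H19, so that H19 is made from the maternal copy and IGF2 from the paternal copy. In the KCNQ1 domain, the long non-coding RNA KCNQ1OT1 is transcribed from the paternal copy, antisense to KCNQ1, and helps to silence CDKN1C, PHLDA2, SLC22A18 and KCNQ1 on that chromosome. Loss of these patterns is known in Beckwith-Wiedemann syndrome and in colorectal tumours. The table does not separate the parental copies, so each value below is the sum of both.

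Sequences are shown for the available start regions and for the microRNA inside H19, and no result on the signal rests on them. Start regions of 300 bases (250 before and 50 from the start site onward, minus strand, RefSeq, GRCh38.p14) were given for 2 of the 8 members, H19 and INS-IGF2. The window of CARS1, a neighbour whose values are described below, is added. Capitals mark matches to the TATA box TATAAA or the GC box GGGCGG on either strand; no match overlapped another.
H19 (chr11:2001217-2001516): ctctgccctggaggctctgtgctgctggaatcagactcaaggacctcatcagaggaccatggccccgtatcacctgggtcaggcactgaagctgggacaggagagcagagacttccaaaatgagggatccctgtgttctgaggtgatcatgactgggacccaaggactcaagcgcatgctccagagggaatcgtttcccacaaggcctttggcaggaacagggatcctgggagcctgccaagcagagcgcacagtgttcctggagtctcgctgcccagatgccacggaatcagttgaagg
INS-IGF2 (chr11:2161160-2161459): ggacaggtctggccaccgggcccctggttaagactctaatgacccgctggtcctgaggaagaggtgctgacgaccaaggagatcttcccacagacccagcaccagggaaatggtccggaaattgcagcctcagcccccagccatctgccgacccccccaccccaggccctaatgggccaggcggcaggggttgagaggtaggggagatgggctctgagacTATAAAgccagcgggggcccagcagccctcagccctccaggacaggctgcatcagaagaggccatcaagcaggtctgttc
CARS1 (chr11:3057374-3057673): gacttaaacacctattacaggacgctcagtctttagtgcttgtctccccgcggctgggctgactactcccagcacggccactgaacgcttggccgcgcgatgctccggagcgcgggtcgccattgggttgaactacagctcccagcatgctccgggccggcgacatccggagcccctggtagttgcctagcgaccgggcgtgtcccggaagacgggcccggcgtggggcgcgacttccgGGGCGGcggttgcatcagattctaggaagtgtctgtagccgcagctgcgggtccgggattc
The INS-IGF2 window, which is also that of the insulin gene, held 1 TATA box, beginning 30 bases before the start site; 11.5% of the 35116 windows of the RefSeq table held such a match. The CARS1 window held 1 GC box, as did 45.0% of all windows. The H19 window held neither, and it was placed by the RefSeq start at 2001266, not by the 2001470 of the table. These windows do not cover the control region of H19. The windows held 6, 7 and 31 CpG dinucleotides in the order printed, against a median of 14 over the table.

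The first exon of H19 holds the hairpin of miR-675, which Drosha cuts from the H19 transcript. It is printed with both mature arms in capitals (chr11:1996759-1996831, minus strand), followed by each arm with its seed, bases 2 to 8, in capitals.
miR-675 hairpin: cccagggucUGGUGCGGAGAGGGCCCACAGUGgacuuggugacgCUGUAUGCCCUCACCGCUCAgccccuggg
miR-675-5p: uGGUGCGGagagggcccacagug
miR-675-3p: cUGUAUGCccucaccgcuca
The seed of miR-675-5p is shared with 1 other mature microRNA of the table, miR-4466, and that of miR-675-3p with none of the 2545 entries. The MIR675 row of the data had scaled signals of 12.7 and 9.21 in control and 9.82 and 14.6 in auxin. These groups overlap, and the value counts all signal over those bases of H19, not the mature microRNA.

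None of the 8 genes passed the test for a change after auxin (limma, adjusted p under 0.05, which 0.732% of the 39464 genes tested passed, 0.332% as higher and 0.4% as lower). All 8 were tested, their adjusted p-values ran from 0.588 to 0.952, and none had an unadjusted p under 0.05, which 10.2% of all genes tested had. Each of the 8 log2 fold changes was above 0, between 0.10 and 0.34, with a median of 0.20, while the median over all genes tested was 0.0089 and 51.3% of them were above 0. In this fit the 95% intervals, each for 1 gene alone, reached from 0.723-fold to 1.82-fold at the widest, both for H19. They depend on the model: without the intensity trend the H19 interval was -0.76 to 1.16 in log2, against -0.47 to 0.86 here. For all 8 genes the 2 control libraries differed from each other by more than the group difference, and for 6 of 8 the auxin libraries did too. The share of all genes tested with this pattern was not computed, and single libraries vary more than means of 2. Whether these counts are particular to the members is therefore unknown, and some of the members also share signal. In 1 gene of 8, KCNQ1OT1, both auxin libraries lay above both control libraries, and 38.2% of all genes tested had groups that did not overlap in one direction or the other, 18.6% with auxin above. A log2 fold change here is a difference of log2(value + 1), which understates the change of low genes.

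**Figure D1:**
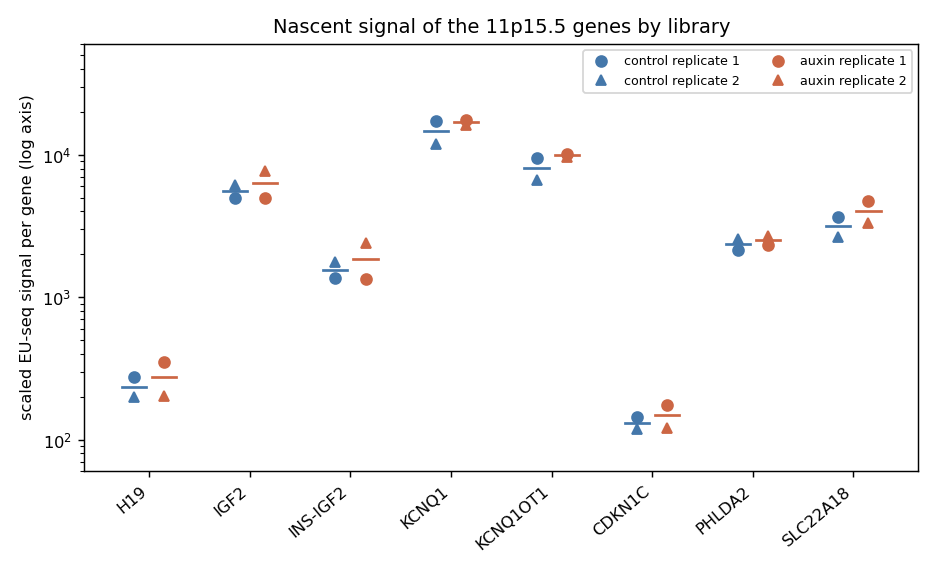
Scaled EU-seq signal (log axis) of each of the 8 genes in the 4 libraries; circles are replicate 1, triangles replicate 2, and lines the group means. Control and auxin points overlap in every gene except KCNQ1OT1, whose auxin values of 9674 and 10149.8 lie above its control values of 6620.01 and 9558.

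H19 is a non-coding RNA (ENSG00000130600, GRCh38 chromosome 11, 1995430 to 2001470, minus strand) that is abundant in the embryo and reactivated in some tumours. Its span overlaps those of MIR675, AC051649.2 and AC051649.3. Overlapping genes share signal here, as described below, so the H19 row may include theirs. The scaled signal of the H19 row was 273 and 197 in control replicates 1 and 2, and 352 and 201 in auxin replicates 1 and 2. The highest and the second highest value were both in replicate 1, one from each group, and both replicate 2 values lay near 200, so the groups overlapped. The means were 235 ± 53.4 and 277 ± 107 for control and auxin (SD, n = 2 each), which is 0.20 in log2 fold change (SE 0.30; limma, adjusted p = 0.937). The interval of the fold change was 0.723 to 1.82. Leaving out auxin replicate 1 or control replicate 2 turned the sign (-0.20 and -0.036), whereas leaving out auxin replicate 2 gave 0.60.

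IGF2 encodes insulin-like growth factor 2, the fetal growth factor of the domain (ENSG00000167244, 2129117 to 2139389, minus strand). It carried 5000.2 and 6108 in control and 4945 and 7735 in auxin. Here replicate 2 was the higher library in both groups, opposite to H19, and auxin held both the lowest and the highest value. The means were 5554 ± 783 and 6339.8 ± 1973 (SD, n = 2 each), which is 0.16 in log2 fold change (SE 0.20; limma, adjusted p = 0.907), with a fold interval of 0.821 to 1.52. The sign turned to -0.16 when auxin replicate 2 was left out, and the estimate was 0.027 when control replicate 1 was.

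INS-IGF2 is a readthrough gene that joins the insulin start to IGF2 exons (ENSG00000129965, 2132538 to 2161209, minus strand). Its signal was 1364 and 1754 in control and 1345 and 2382 in auxin. The order of the libraries was that of IGF2, with which it shares 6.852 kb, or 23.9% of its span. Its log2 fold change was 0.21 (SE 0.25, limma adjusted p = 0.903), and it was -0.20 without auxin replicate 2 and 0.038 without control replicate 1. INS, the insulin gene at its far end, was listed at 0 in all 4 libraries.

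Taking H19 and IGF2 as a ratio within each library needs no scaling between libraries, though both rows share signal with overlapping genes. The log2 ratio of IGF2 to H19 was 4.19 and 4.94 in control and 3.81 and 5.26 in auxin. Both control values lay inside the auxin range. The means differed by -0.034 (two-sided exact permutation p = 1 over 3 splits, where the smallest possible is 0.33), and the sign of that difference turned when control replicate 2 (0.34) or auxin replicate 1 (0.69) was left out.

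**Figure D2:**
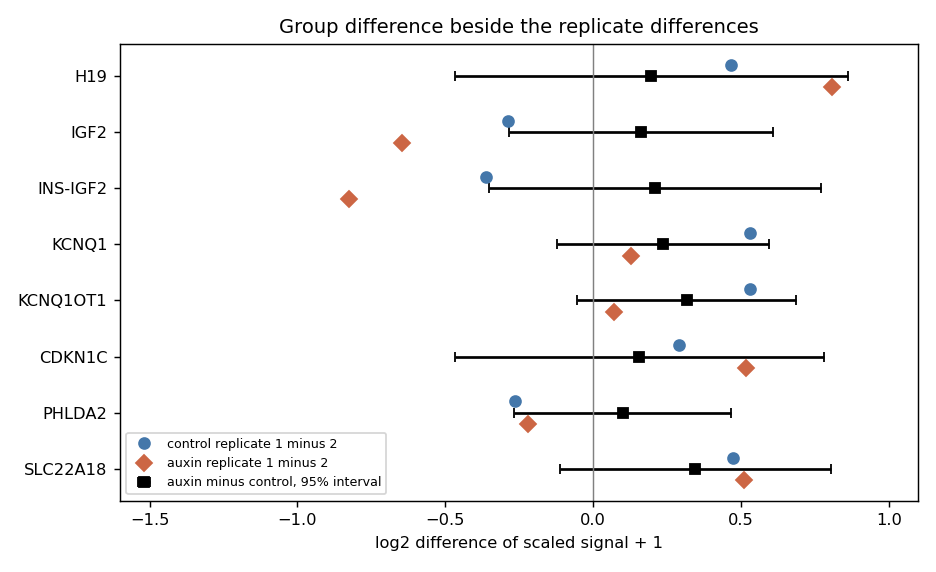
Log2 difference between auxin and control (squares, with 95% intervals from limma) beside the difference between replicates 1 and 2 in control (circles) and in auxin (diamonds), for each gene. Every interval includes 0, and the replicate differences of H19 (0.46 and 0.81) and IGF2 (-0.29 and -0.65) point in opposite directions.

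Because signal is shared among genes that cover the same bases, the rows were compared with one another. In all 36438 values above 0 of genes nested inside a gene on the opposite strand, the nested gene's value did not exceed its host's (tolerance 0.02), and the same held for 27592 values of genes nested on the same strand. The values therefore carry no strand, although the library kit named in the labels is a directional one, and KCNQ1 and KCNQ1OT1 cannot be read as separate transcripts.

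Within IGF2, most of the signal lay at the 3′ end. The stretch of 3.421 kb that IGF2 does not share with INS-IGF2, the last 33.3% of its span, held at least 72.7% and 71.3% of the IGF2 signal in control and 72.8% and 69.2% in auxin. The lowest share was in auxin replicate 2, and the groups overlapped. That is at least 1052 to 1565 per kb over the 4 libraries. The 10.219 kb of the longer gene model AC132217.2 that lie outside IGF2, where IGF2-AS is transcribed on the other strand, held only 25.4 and 11.2 in control and 46.4 and 25.8 in auxin. Both auxin values were above both control values there, by less than 1 unit in the closer pair, at a level near the bottom of the table (exact permutation p = 0.33, the smallest possible).

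KCNQ1 encodes a voltage-gated potassium channel of heart and epithelia (ENSG00000053918, 2445008 to 2849105, plus strand). It had 17251 and 11947 in control and 17668 and 16179.9 in auxin. Control replicate 2 stood below the other 3 libraries, and control replicate 1 lay between the auxin values. The means were 14599 ± 3750.1 and 16924 ± 1052 (SD, n = 2 each), which is 0.24 in log2 fold change (SE 0.16; limma, adjusted p = 0.735), with a fold interval of 0.919 to 1.51. Without control replicate 2 the log2 fold change was -0.029, and without control replicate 1 it was 0.51.

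KCNQ1OT1 (ENSG00000269821, 2608328 to 2699994, minus strand) covers 22.7% of the KCNQ1 span. Its signal was 9558 and 6620.01 in control and 10149.8 and 9674 in auxin. The groups did not overlap, with auxin replicate 2 just above control replicate 1. On the deposited scale they did overlap, at 9551 and 6715 in control and 8279 and 11700 in auxin. The means were 8089 ± 2077 and 9912 ± 336 (SD, n = 2 each), which is 0.32 in log2 fold change (SE 0.17; limma, adjusted p = 0.588). Its fold interval was 0.964 to 1.61, and without control replicate 2 the log2 fold change was 0.052.

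The share of KCNQ1 signal that lay over KCNQ1OT1 was 55.4% in both control libraries, 57.4% in auxin replicate 1 and 59.8% in auxin replicate 2. Both auxin shares were above both control shares, and this does not depend on how libraries are scaled. As a log2 ratio of KCNQ1OT1 to KCNQ1, the difference was 0.081, from -0.85 in both control libraries to -0.80 and -0.74 in auxin (two-sided exact permutation p = 0.33, the smallest that 3 splits allow), so the design cannot bring it past the threshold. It was 0.052 to 0.11 when any 1 library was left out. The rest of KCNQ1, 312.431 kb, held 7693 and 5327 in control and 7518 and 6506 in auxin, which overlap, and 17.1 to 24.6 per kb.

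**Figure D3:**
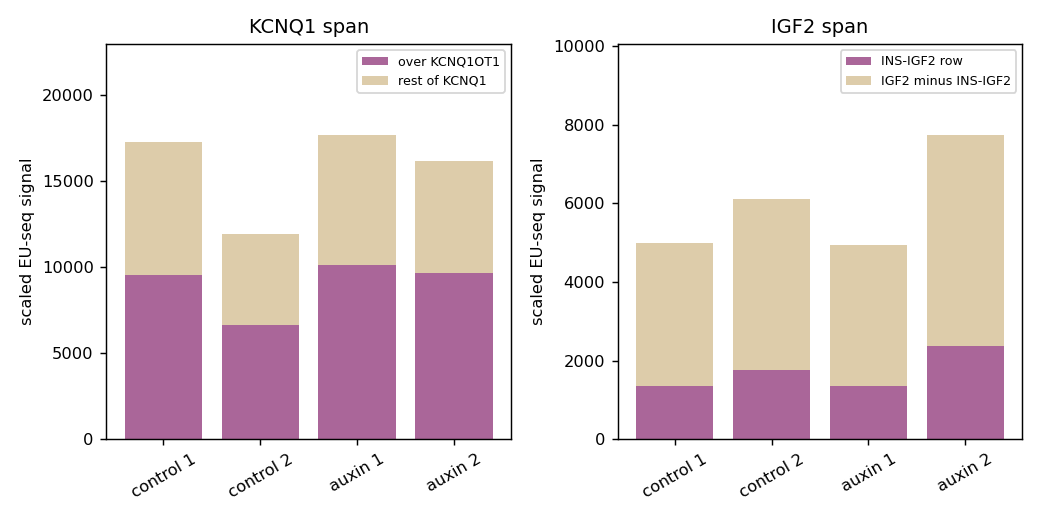
Left, scaled signal over KCNQ1OT1 and over the rest of the KCNQ1 span in each library; right, the INS-IGF2 value and the remainder of the IGF2 value, which is a lower bound for the IGF2 3′ end. The KCNQ1OT1 part makes up 55.4% to 59.8% of each left bar, and the remainder of IGF2 69.2% to 72.8% of each right bar.

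CDKN1C encodes p57, an inhibitor of cyclin-dependent kinases (ENSG00000129757, 2883213 to 2885771, minus strand). It overlaps no other gene of the table and had the lowest signal summed over a span, though not per kb, of the 8 genes, at 144 and 118 in control and 174 and 121 in auxin. As with H19, replicate 1 was higher in both groups, and the groups overlapped. The log2 fold change was 0.16 (SE 0.28, limma adjusted p = 0.952), with a fold interval of 0.724 to 1.72, and it was -0.094 without auxin replicate 1 and 0.011 without control replicate 2.

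PHLDA2 encodes a small pleckstrin-homology protein that restrains placental growth (ENSG00000181649, 2928273 to 2929420, minus strand). It also overlaps no other gene. Its signal was 2137 and 2567 in control and 2326 and 2709 in auxin, with replicate 2 higher in both groups and the ranges overlapping. Its log2 fold change was 0.10 (SE 0.16, limma adjusted p = 0.947), with a fold interval of 0.831 to 1.38. The sign turned without control replicate 1 (-0.023) or auxin replicate 2 (-0.010).

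SLC22A18 encodes a membrane transporter of the organic cation family (ENSG00000110628, 2899721 to 2925246, plus strand). Its span overlaps that of SLC22A18AS. It had 3656 and 2632 in control and 4702 and 3301 in auxin. Auxin replicate 1 was highest and control replicate 2 lowest, and the values between them interleaved. The log2 fold change was 0.34 (SE 0.21, limma adjusted p = 0.669), with a fold interval of 0.924 to 1.75. It dropped to 0.098 with auxin replicate 1 left out and to 0.11 with control replicate 2 left out. Replicate 1 was higher in both groups, and such a fit leaves replicate numbers unequal between groups. Auxin minus control in log2 was 0.36 for number 1 and 0.33 for number 2, which was not tested, and the labels do not pair the numbers.

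The log2 ratio of CDKN1C to PHLDA2, 2 non-overlapping genes that KCNQ1OT1 is known to silence in cis, was -3.88 and -4.44 in control and -3.73 and -4.47 in auxin. The control values lay within the auxin range. The difference was 0.057 (two-sided exact permutation p = 1), and its sign turned without control replicate 2 (-0.22) or auxin replicate 1 (-0.31).

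Levels of different genes were compared as scaled signal per kb of span, introns included. PHLDA2 stood highest, at 1862 to 2359 per kb over the 4 libraries, at the 99.9th percentile of tested protein-coding genes. IGF2 followed at 481 to 753, at the 95.4th percentile, and neither range overlapped that of another member. The IGF2 level depends on the span: the longer model AC132217.2, which covers IGF2, had 244 to 379 per kb, at the 85.7th percentile. SLC22A18 (103 to 184) and KCNQ1OT1 (72.2 to 111) overlapped each other, and KCNQ1OT1 overlapped INS-IGF2 (46.9 to 83.1). INS-IGF2, CDKN1C (46.0 to 68.0), H19 (32.7 to 58.3) and KCNQ1 (29.6 to 43.7) formed a run in which each range overlapped the next. The H19 row, whose span overlaps other genes, was thus at a lower level per kb than that of IGF2 in every library. It lay at the 64.6th percentile of tested lncRNA genes.

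The order of the replicates was the same in control and auxin for all 8 genes, as it was for 63.3% of all genes tested. Replicate 1 was the higher library for H19, KCNQ1, KCNQ1OT1, CDKN1C and SLC22A18, and replicate 2 for IGF2, INS-IGF2 and PHLDA2. The labels do not say whether the replicate numbers mark a shared day or batch.

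Around the domains, 27 of 28 listed symbols of neighbours were found once in the table. The other was CARS, which was listed beside CARS1. Of the 27, 20 were tested, and none passed the threshold in either direction (limma). Of the 20, 2 had an unadjusted p under 0.05, which 10.2% of all genes tested had. The median log2 fold change of the 20 was 0.13. Of the 28 tested genes of the region, members included, 23 had a log2 fold change above 0, as had 51.3% of all genes tested. Several of the 28 overlap and share signal, such as KCNQ1 and KCNQ1OT1, so the count is not one of independent genes. The smallest p-values belonged to CARS1-AS1, CARS1 and TH. CARS1 encodes cysteinyl-tRNA synthetase and lies beyond PHLDA2, with its start 1056 kb from that of H19. It had 5460.4 and 5676 in control and 7096 and 9325 in auxin, so that the groups did not overlap, which is 0.55 in log2 fold change (SE 0.15; limma, adjusted p = 0.177). Its limma adjusted p was 0.0204 with auxin replicate 1 left out and 0.906 with auxin replicate 2 left out. Those fits hold 1 auxin library, assumed to vary like the control libraries, and their prior degrees of freedom were infinite, so neither is a replicated call. CARS1-AS1, whose span lies inside CARS1 and shares its signal, had 501 and 585 in control and 849 and 1034 in auxin (log2 fold change 0.79, adjusted p = 0.131). TH, tyrosine hydroxylase, was near the bottom of the table at 11.02 and 3.07 in control and 15.2 and 25.8 in auxin (adjusted p = 0.493), and its log2 estimate of 1.57 ran from 0.79 to 2.36 when 1 control library was left out. MRPL23-AS1, next to H19, was singled out after its values were seen: it had 569 and 228 in control and 617 and 232 in auxin, a replicate order like that of H19 but wider.

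**Figure D4:**
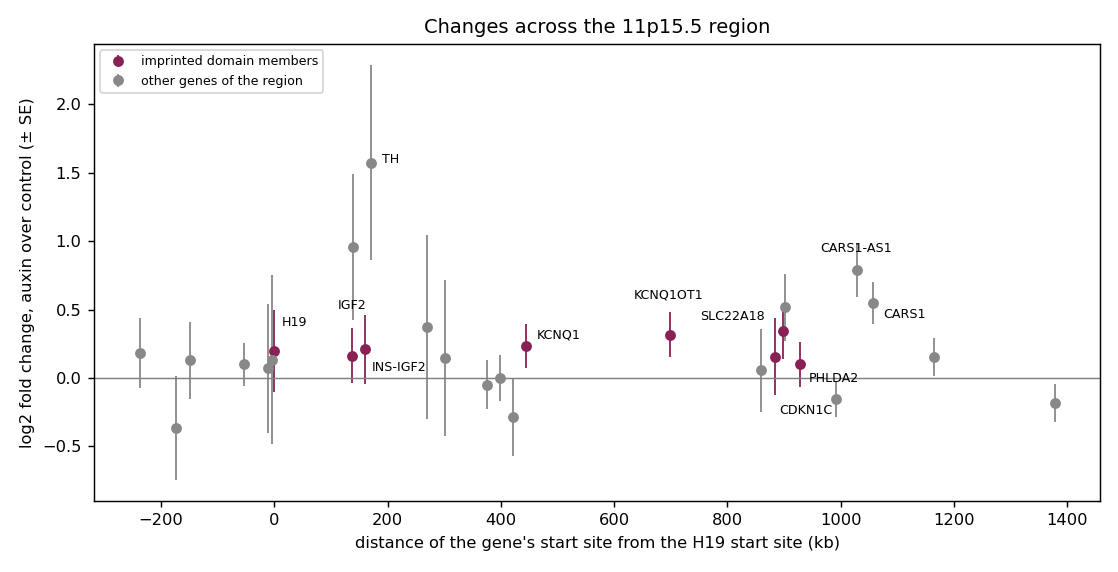
Log2 fold change of auxin over control (± SE from limma) for the 28 tested genes of the region, by the distance of each start site from that of H19 in kb; the 8 members are in purple. The members lie between 0.10 and 0.34, and the tested neighbours between -0.37 and 1.57.

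By closeness of their centred log2 values over the 4 libraries, among 103 listed genes whose mean reached 50, the genes most like H19 were CTSD, a lysosomal protease gene of the same region (distance 0.039), IGFBP6 (0.24) and LSP1 (0.35). Those most like IGF2 were KCNQ1-AS1, IGF2BP3 and IGF2BP2 (0.15, 0.15 and 0.16). With 4 libraries such likeness is a description only.

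A list of 15 genes covered IGF2 receptors and binding proteins, and also held IGF1, INSRR, IGF2BP1, IGF2BP2 and IGF2BP3. Of the 15, 14 were tested and none passed the threshold (limma). Of the 14, 1 had an unadjusted p under 0.05 (10.2% of all genes tested had), and the median log2 fold change was 0.049. IGF1R, the signalling receptor, had 4755 and 3877 in control and 4465 and 4648 in auxin. IGF2R, which clears IGF2 from the cell surface, had 13197 and 13031 against 12922 and 14461. Both sets overlapped. The 3 smallest p-values were those of IGFBP2, INSRR and INSR. IGFBP2, a secreted IGF-binding protein, had 4931 and 4225 in control and 2935 and 2724 in auxin (a change of -0.69 in log2, SE 0.15, with adjusted p = 0.079 by limma), with no overlap. INSR had a log2 fold change of -0.19 (adjusted p = 0.742) and INSRR of -0.40 (adjusted p = 0.736). Control replicate 1 carries much of both: leaving it out gave -0.036 and -0.081, and leaving out control replicate 2 gave -0.34 and -0.71.

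Among 24 tested paralogues and partners of the members, 1 rose and 2 fell at an adjusted p under 0.05 (limma). Over all genes tested, 0.332% rose and 0.4% fell at that threshold. The unadjusted p was under 0.05 for 11 of the 24, 5 higher and 6 lower, against 10.2% of all genes tested. Groups did not overlap for 16 of the 24, against 38.2% of all genes tested. The list was chosen with earlier results of these data known, so these counts do not test whether it differs from other genes. The median log2 fold change of the 24 was -0.17. CDKN1B, which encodes p27, the paralogue of p57, rose from 933 and 875 in control to 1963 and 2046 in auxin (a change of 1.15 in log2, SE 0.16, with adjusted p = 0.0129 by limma). CDKN1A, which encodes p21, had 5501 and 5651 in control and 8119 and 8013 in auxin (0.53, adjusted p = 0.102). CDKN1C, as above, had an estimate of 0.16, and the difference between the 3 paralogues' changes was not tested. CCND1, cyclin D1, fell from 27207 and 28593 to 17126 and 16078 (log2 fold change -0.75, SE 0.10, adjusted p = 0.0111). CDK6, its kinase partner, fell from 19592 and 24676 to 11945 and 14198 (-0.76, SE 0.14, adjusted p = 0.0423), and it missed the threshold without control replicate 2 (adjusted p = 0.141), with scaling by library total only (0.0514), with no filter (0.0714) and with a required mean of 50 (0.062). On the deposited scale, and without the intensity trend of the test, CDKN1B, CCND1, CDK6 and STAG1 (below) all missed the threshold, with adjusted p from 0.732 to 1 and from 0.49 to 0.55 in limma.

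**Figure D5:**
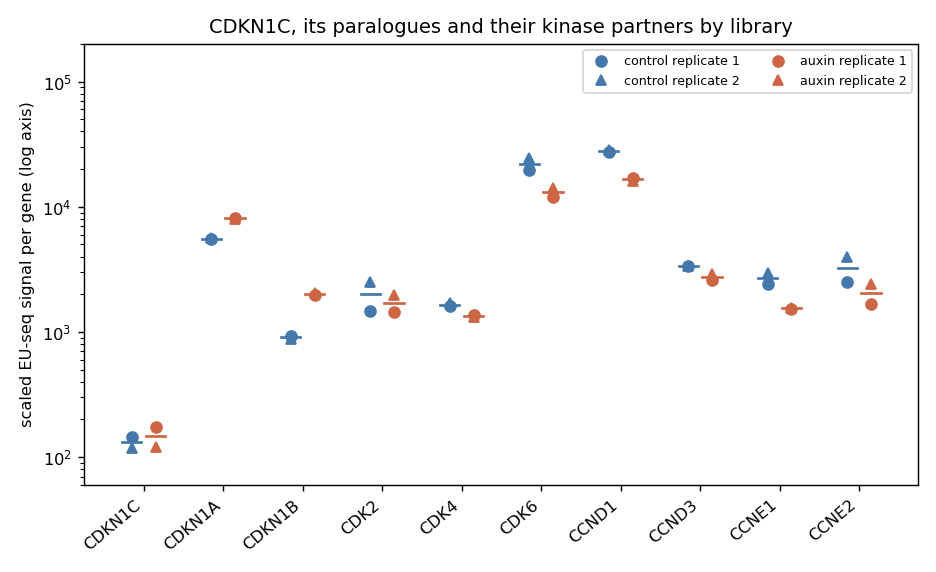
Scaled EU-seq signal (log axis) of CDKN1C, its paralogues CDKN1A and CDKN1B, and cyclin and kinase genes in the 4 libraries; circles are replicate 1, triangles replicate 2, lines the group means. CDKN1B goes from 933 and 875 to 1963 and 2046, while the CDKN1C groups overlap.

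Of 28 genes for imprint maintenance, CTCF and cohesin, all were tested, 1 rose and none fell at an adjusted p under 0.05 (limma), and the median log2 fold change was -0.045. The gene that rose was STAG1, a cohesin subunit, from 26340.1 and 29885 to 44680 and 48949, or 0.74 in log2 (SE 0.10, limma adjusted p = 0.0129). Over all genes tested, 0.332% rose at that threshold. The unadjusted limma p was under 0.05 for 10 of the 28, against 10.2% of all genes tested. Of these 10, 2 had higher and 8 had lower values in auxin. This list, too, was chosen with earlier results of these data known, so its counts do not test whether it differs from other genes. The 8 lower ones included UHRF1, which maintains DNA methylation, at 23294 and 28004 in control and 13085 and 18341 in auxin (-0.72 in log2, limma adjusted p = 0.0874). CTCF itself had 16326 and 16440.3 in control and 17983 and 18480.1 in auxin (0.15, adjusted p = 0.736). RAD21 had 5154 and 7190.2 in control and 5893 and 6264 in auxin, which overlap (log2 fold change -0.0029, adjusted p = 0.998), and since the degron acts on the protein, these RNA values do not measure its depletion.

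The libraries as a whole held totals of 61135244 to 93113007 on the deposited scale, and the common scale divided them by 0.816 to 1.21. Of 9 epithelial and intestinal markers, 7 had a mean signal above 100, and CDX1 and LGR5 were lower; of 7 markers of other cell types COL1A1 and PECAM1 were above 100. The summed signal of those 7 was 897 to 1041 in control and 1231 to 1332 in auxin. COL1A1 made up most of that sum, at 577 and 732 in control and 893 and 998 in auxin (limma adjusted p = 0.335), whereas GFAP and CD3E had lower means in auxin and COL1A2 was listed at 0 in control replicate 2. The part of these markers in the results was not tested.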

How the data were processed

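EU-seq signal was analysed in 4 libraries, 2 control and 2 auxin, grouped and numbered from their titles. The authors deposited 1 table of signal per gene, with spans and types. Per the submitters' processing notes, Trimmomatic 0.39, Bowtie2 2.4.5 and deepTools 3.5.1 and the builds hg38 and dm6 were used; counting, annotation and scaling are not given in the sources used here. Low values were whole multiples of 1 step per library (0.727 to 1.36), and at most 8 genes spanning 10 kb or more per library held a single step, so the values were not treated as reads and depth is unknown. A misspelt control column was assigned by its replicate number. Starts count from 0 in the table and are printed 1 higher.

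Genes with a value equivalent to 10 in 2 libraries and a total of 15 were brought to a common scale with trimmed means of M-values (30% and 5% trimmed) and tested as log2(value + 1) in limma 3.58.1 under R 4.3.3, with an intensity trend, at a Benjamini-Hochberg adjusted p under 0.05 over all 39464 genes. Ratios within a library used exact permutation tests. In simulations of auxin against control over 39464 genes, the test found 6% of genes changed 1.5-fold, 48.3% of those changed 2-fold and 83.8% of those changed 4-fold. Of the 8 members 7 were matched to RefSeq, 3 with the same start and end; its H19 (1995176 to 2001266), IGF2 (2129117 to 2149566) and INS-IGF2 (2129117 to 2161209) differ from the spans in the table. Python 3.11.15 with pandas 2.3.3 made the tables, and matplotlib 3.10.9 the plots.

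The members and lists were chosen with earlier results of these data known. Named were all members, RAD21, in each other list the genes past the threshold or else the 3 smallest p-values, and the 3 genes most like H19 and IGF2; others are named for their role after their values were seen. Lists covered neighbours, other imprinted genes, imprint and insulator factors, IGF2 receptors, binding proteins and related genes, and paralogues and partners. Alternatives were other scalings, filters and pseudocounts, no intensity trend, the replicate number as a block, and leaving out each library.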

Additional observations from a re-analysis of the deposited data

How the results depend on the processing

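Other scalings, filters and pseudocounts moved the log2 fold changes of the members little, and no sign turned; a scaling shifts all genes nearly alike, and the block and the intensity trend leave the estimate as it is, so this says little about stability. Leaving out 1 library turned the sign of 6 of 8 members: the log2 fold change ranged from -0.20 to 0.60 for H19, -0.16 to 0.49 for IGF2, -0.20 to 0.63 for INS-IGF2, -0.029 to 0.51 for KCNQ1, -0.094 to 0.42 for CDKN1C and -0.023 to 0.23 for PHLDA2. It ranged from 0.052 to 0.59 for KCNQ1OT1 and 0.098 to 0.60 for SLC22A18. The ratio of IGF2 to H19 ranged from -0.76 to 0.69 and that of CDKN1C to PHLDA2 from -0.31 to 0.43. Such a fit leaves replicate numbers unequal between groups, and all 8 members had the same replicate order in both. Auxin minus control (log2, number 1 then 2) was 0.37 and 0.025 for H19, -0.016 and 0.34 for IGF2 and -0.021 and 0.44 for INS-IGF2. It was 0.035 and 0.44 for KCNQ1, 0.087 and 0.55 for KCNQ1OT1 and 0.27 and 0.043 for CDKN1C. PHLDA2 had 0.12 and 0.078 and SLC22A18 0.36 and 0.33, and none of these was tested. Without 1 library, no member was called.

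Over all genes, 289 were called, 55 on the deposited scale, 0 without the intensity trend (limma; 3198 had an unadjusted p under 0.05), and 211 to 669 without 1 library (527 without auxin replicate 2 and 669 without auxin replicate 1). Over the 5 other lists 4 genes were called, 0 on the deposited scale and 3 to 8 without 1 library (8 without auxin replicate 2). The causes were not tested.

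The replicate numbers are not said to pair libraries, and 2 pairs cannot show it; the difference between replicates correlated across genes between the groups at Pearson's r 0.231 and Spearman's rho 0.306, or r 0.462 among genes whose mean reached 50. The replicate block gave 4273 called genes (10.8% of those tested), 25 in the lists and 2 of 8 members, KCNQ1OT1 (0.32, limma adjusted p = 0.0189) and SLC22A18 (0.34, adjusted p = 0.021). The prior degrees of freedom were infinite there, on the deposited scale and in both fits that leave out an auxin library. A fit with 1 library in a group assumes that it varies like the other group. With 2 libraries a group, the simulations found 6% of genes changed 1.5-fold and 48.3% of those changed 2-fold. They drew normal noise with the spreads that the test itself estimated, over genes of all levels, so recovery at the members' levels was not measured.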

Other observations

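Imprinted genes outside 11p15.5 were measured in the same libraries. Of 51 listed symbols, 49 were found once in the table, all but HERC3 and MCTS2, which was listed beside MCTS2P. Of the 49, 44 were tested, and none passed the threshold (limma). An unadjusted p under 0.05 was seen for 2 of the 44, against 10.2% of all genes tested. The median log2 fold change of the 44 was 0.057, against 0.0089 over all genes tested, and 26 were above 0. The 3 smallest p-values were those of GNAS-AS1, FAM50B and PLAGL1. GNAS-AS1, the antisense RNA of the GNAS domain, had 94.1 and 55.3 in control and 98.1 and 177 in auxin (0.86 in log2, SE 0.37, with adjusted p = 0.451 by limma), and its estimate ran from 0.44 without auxin replicate 2 to 1.3 without auxin replicate 1. GNAS, which encodes the stimulatory G-protein alpha subunit, had 10305 and 10808 in control and 10958 and 11478 in auxin (0.088 in log2, adjusted p = 0.916). PLAGL1, a zinc finger gene, had 4197 and 3818 in control and 5135 and 4749 in auxin (0.30, adjusted p = 0.495), and FAM50B was low, at 11.02 and 21.5 against 36.6 and 32.6 (adjusted p = 0.472), with an estimate of 0.67 to 1.56 in log2 when 1 control library was left out. GNAS and GNAS-AS1 share part of their spans and so some signal. Of the 44, 22 had groups that did not overlap, in either direction (38.2% of all genes tested did not), some higher in auxin, as these 4, and some lower, as MEST. MEG3, a non-coding RNA that resembles H19 in being made from the maternal copy, was low at 60.2 and 36.8 in control and 41.0 and 41.6 in auxin. SNRPN, of the Prader-Willi region, had 698 and 870 in control and 729 and 767 in auxin, and GRB10, a growth inhibitor, 8741 and 8191 against 8201 and 9027. The groups of MEG3, SNRPN and GRB10 overlapped.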
